A study of Mus musculus with 12 samples.

Results

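Polysomal RNA of Ddx27-/- C2C12 myoblasts was compared with polysomal RNA of wild-type C2C12 myoblasts. C2C12 is an established line of mouse muscle precursor cells, which proliferate as single myoblasts and can be made to fuse into multinucleate myotubes. Polysomal RNA is the RNA recovered from purified polysomes, the transcripts that carry several ribosomes at once. The comparison used 6 of the 11 libraries with values: 3 wild-type polysomal and 3 knockout polysomal libraries. The other 5, 3 wild-type and 2 knockout libraries of total cellular RNA from the same genotypes, were set beside it. The labels list 12 samples, and the values were joined over 12590 genes listed for both genotypes, of which 12189 passed the filter on low values and were tested. Both genotypes are the same cell line and no treatment is named. Whether the knockout cells are 1 clone or several, and whether the 3 libraries of a group came from separate cultures, is not given in the labels, so p-values measure only the spread between these libraries, which may be technical. Because total polysome yield was not measured in these files, a value is a share of the polysomal RNA of its library; in bulk samples fewer cells of a type and less RNA per cell cannot be told apart.

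Ddx27 encodes an RNA helicase of the DEAD-box family that sits in the nucleolus and helps to process ribosomal RNA precursors, working beside the PeBoW proteins Pes1, Bop1 and Wdr12 in the maturation of the large ribosomal subunit. Myoblasts are muscle precursor cells whose identity is set by the transcription factors Myod1 and Myf5, and whose later fusion into myotubes is accompanied by Myog. The level of an mRNA in polysomes depends both on how much of it the cell holds and on how much of it is being translated, so the genotype difference in total RNA is set beside that in polysomal RNA for selected genes, for gene lists and in a comparison of both.

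The targeted gene was lower in all knockout polysomal libraries. Ddx27 (ENSMUSG00000017999, chromosome 2, 167015313 to 167034945 in GRCm38.p6) had normalised read counts of 199, 143 and 200.3 in the wild-type libraries and 55.2, 42.7 and 31.7 in the knockout libraries. The groups did not overlap, and reads of the gene remained in every knockout library. On the log2(value + 1) scale used for all fold changes here, the difference of knockout minus wild type was -2.06 ± 0.27 (SE, n = 3 and 3), with an adjusted p of 0.0113 by limma. In total RNA it was -1.62 (adjusted p = 0.00195). Leaving out wild-type library 1, knockout library 2 or knockout library 3 took the adjusted p to 0.0563, 0.0607 and 0.0831, with differences between -2.07 and -1.86.

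The libraries held 13683674 to 22986593 reads, and 3 reads, the limit that a value of 0 allows, were worth 0.117 to 0.267 normalised read counts; such limits and intervals cover counting error alone, because PCR copies of a molecule cannot be told from separate molecules here. Libraries of a group differed far beyond counting error, with a chi-square per degree of freedom of 107 to 581 between pairs. These values include the gene models with the sequence of ribosomal RNA. The part of those models in them was not separated, so they are not the spread of other genes alone. Gene models with the sequence of ribosomal RNA took 5.93, 14.6 and 0.676% of the wild-type reads and 23.2, 32.7 and 0.386% of the knockout reads. Short genes stood relatively high in wild-type library 2 and knockout library 1, where the slope of log2 value on log2 gene length against the mean of the 6 libraries was -0.276 and -0.152, and it was 0.0275 to 0.165 in the others. The part of these differences in the results was not tested beyond the values given beside them below.

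Of 12189 genes, 202 (1.66%) were called higher in knockout polysomal RNA and 114 (0.935%) lower at an adjusted p under 0.05 by limma, and 1938 had an unadjusted p under 0.05. On the deposited scale, without a common factor, the split was 157 higher and 140 lower. All but 1 call in each direction were at least 1 in size on the log2 scale, 201 higher and 113 lower, and the median over all genes was 0.01. Separately, the 3 knockout libraries lay wholly above the 3 wild-type libraries for 1594 genes (13.1%) and wholly below them for 1280 (10.5%), which is the background for counts of non-overlapping genes below. All 202 genes called higher and all 114 called lower were without overlap, so its absence in a called gene adds nothing to the call. How many genes were called depended on single libraries: the counts were 5 higher and 19 lower without knockout library 3, 40 and 28 without knockout library 2, 89 and 49 without knockout library 1, 66 and 41 without wild-type library 1 and again without wild-type library 3, and 395 and 202 without wild-type library 2. Of 85 called genes named by rule, 20 kept an adjusted p under 0.05 in every one of these 6 fits: Myod1, Akap12, Osbp2, Has1, Ptgis, Rgs16, Nefl, Cd24a, Actg2, Blnk, Ccbe1, Nefm, Mmp2, Wnt7b, Wnt4, Loxl2, Sdpr, Gap43, Tnc and Ncf4. Ddx27 aside, 64 of the 85 lost the call without knockout library 3. Losses numbered 36 to 50 without knockout library 1, knockout library 2, wild-type library 1 or wild-type library 3, and 0 without wild-type library 2. Ddx27 itself lost it without wild-type library 1, knockout library 2 or knockout library 3. None of the 85 changed direction in any setting.

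**Figure D1:**
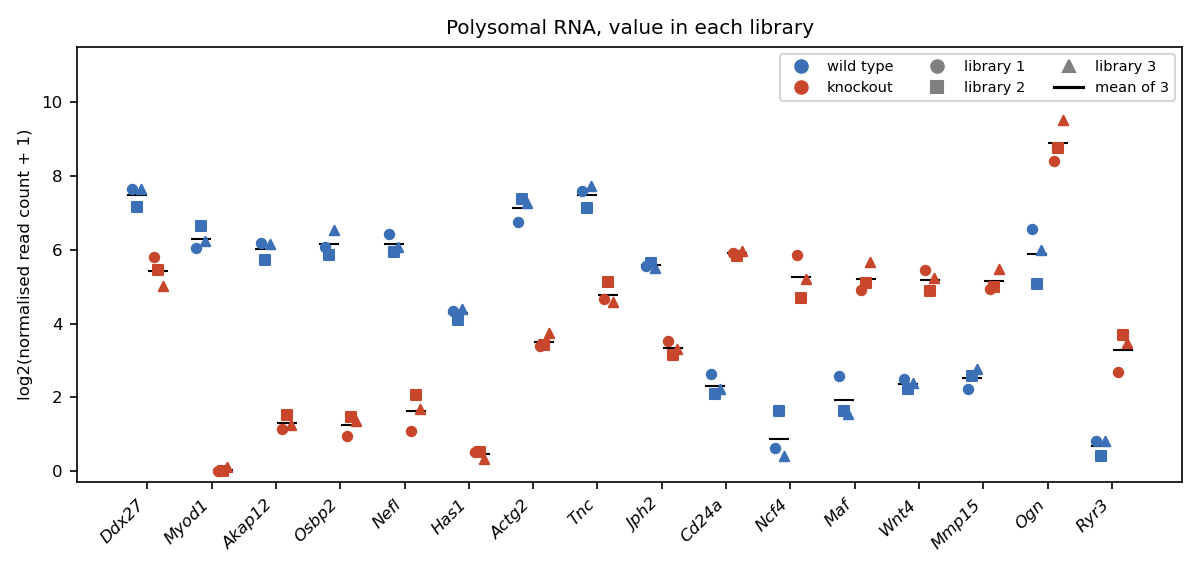
Normalised read counts of 16 named genes in polysomal RNA, on a log2(value + 1) axis, in each of the 3 wild-type (blue) and 3 knockout (red) libraries, with marker shapes for library numbers and black bars for means. The groups do not overlap for any of the 16 genes, which holds for every gene called. Myod1 is at or near 0 in the knockout, at 0, 0 and 0.087.

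The largest fall was that of a muscle-determining factor. Myod1, the transcription factor that commits cells to the myoblast fate, had 65.3, 98.5 and 74.0 normalised read counts in the wild-type polysomal libraries and 0, 0 and 0.087 in the knockout libraries. These values stand for 4725 reads in the wild type and 2 reads in the knockout, a ratio of 1810 on the common scale with a 95% interval of 500.9 to 14950 that covers counting error only. The fitted difference was -6.27 ± 0.25 (adjusted p = 8.57e-05), and total RNA gave -6.38. With knockout values at or near 0, log2(value + 1) limits the polysomal fall, so these differences do not show that the falls were equal. In total RNA the wild-type libraries held 132, 132 and 172 and the knockout libraries 0.383 and 1.198, so the gene was near 0 in both kinds of knockout RNA.

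Of the other myogenic factors, Myf5 and Myog were not called in polysomal RNA. Myf5, the second early determination factor, had 52.7, 91.1 and 67.1 in the wild type and 75.0, 108 and 116 in the knockout, and the groups overlapped (0.51 ± 0.28, adjusted p = 0.437). Myog, which acts at the start of differentiation, had 3.42, 5.24 and 0.875 against 1.14, 1.07 and 1.17, also overlapping (-0.81 ± 0.42, adjusted p = 0.414). In total RNA both passed the test, Myf5 at 0.99 (adjusted p = 0.0355) and Myog at -1.95 (adjusted p = 0.0203). Pax7, the factor of muscle stem cells, was listed for the wild type only, at 3.15, 1.496 and 1.83, and was not tested. Mef2c was likewise listed for the wild type only. Of 23 tested myogenic regulators, 0 were called higher and 1, Myod1, lower, and their median difference was 0.21 against 0.01 over all genes. In all, 29 regulators were listed for either genotype. Genes listed for a single genotype were not tested and are not in these counts. Over all genes, 741 were listed for the wild type only and 437 for the knockout only.

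Desmin, the intermediate filament of muscle cells encoded by Des, fell from 419, 459 and 356 to 199, 160 and 213, without overlap (-1.11 ± 0.23, adjusted p = 0.0477). Jph2, which ties the sarcoplasmic reticulum to the plasma membrane, fell from 46.5, 49.1 and 44.9 to 10.6, 7.93 and 8.96 (-2.24 ± 0.22, adjusted p = 0.00375). Jsrp1, a protein of the same junction, fell by 2.77 on the log2 scale, and Ryr3, a calcium release channel, rose from 0.777, 0.332 and 0.756 to 5.50, 11.9 and 10.2 (2.61 ± 0.32). Of 15 tested genes of the muscle calcium store and excitation coupling, 1 was called higher and 2 lower, and without knockout library 3 none was, while 1 was called lower without wild-type library 1, knockout library 1 or knockout library 2. Among 22 contractile proteins, Myom2 (1.55) and Ldb3 (1.23), both of the sarcomere, rose and the cardiac actin Actc1 (-1.44) fell. Actc1 had 2.41, 3.08 and 2.43 in the wild type and 0.357, 0.178 and 0.478 in the knockout. The 2 higher calls became 4 without wild-type library 2 and 0 without any other library, and Actc1 kept its call only in the fit without wild-type library 2. The median of the contractile list was -0.06 and its sign was not the same under every alternative, from -0.27 to 0.26. Chrng, the fetal gamma subunit of the acetylcholine receptor, rose from 0.738, 1.08 and 0.596 to 7.002, 3.48 and 6.22 (1.83 ± 0.29, adjusted p = 0.0203), while total RNA showed -0.16.

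Levels of marker genes of myoblasts and of other cell types were as follows. The summed level of the 8 myoblast markers was 930 to 1107 in the wild type and 539 to 599 in the knockout, with Cdh15, Itga7, Met and Vcam1 present in both. Des was the largest part of both sums, and with Myod1, Cdh15 and Itga7 it lay wholly below the wild type. Myf5, Met and Vcam1 overlapped between the groups, and Pax7 was listed for the wild type only. The lower sum is thus not a fall of every myoblast marker. Differentiated muscle markers summed to 19.8 to 32.3 and 14.9 to 28.1, and the embryonic myosin Myh3 and the creatine kinase Ckm stayed below 0.4 in every library. Fibroblast markers summed to 43.1 to 85.8 in the wild type and 103 to 166 in the knockout over 6 genes, of which 3 were listed for both genotypes and Ly6a gave most of the sum, while Dcn stayed below 2. For leukocytes 2 of 4 markers had values, summing to 2.41 to 3.66 and 6.51 to 7.79, and none of 4 endothelial markers had one. Adipocyte markers summed to 41.6 to 52.3 in the wild type and 69.2 to 71.3 in the knockout over 3 of 6 genes. Of these, only Cebpa rose without overlap (1.80), while Pparg and Lpl overlapped between the groups. Fabp4, Adipoq and Plin1 were listed for neither genotype, so the higher sum is not a rise of adipocyte markers in general. Neuron and Schwann markers summed to 82.6 to 125 and 40.5 to 44.9, of which Tubb3 made up most, and smooth muscle markers to 70.5 to 111 and 54.5 to 58.4, where Cnn1 was listed for the wild type only. The chondrocyte and osteoblast sums, 135 to 171 and 98.9 to 172, and the tenocyte sums, 76.1 to 452 and 149 to 410.3, overlapped. The part of other cell types in the results was not tested.

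Promoter sequence was searched for motifs of myogenic factors, serum response factor and TEAD over all genes with an entry, because called genes include muscle and immediate-early genes whose promoters are textbook targets of such factors. Of the genes tested, 8476 matched an entry in a RefSeq promoter table of GRCm38.p6, and 4 motifs were searched on both strands in the 250 bases before the annotated start. An entry existed for 127 of the 202 genes called higher and 77 of the 114 called lower. Myod1, Actg2, Tagln and Ctgf had none, so their promoters were not searched. CAGCTG, an E-box form bound by myogenic factors, was present in 11.4% of all promoters, 17.3% of those of genes called higher and 15.6% of those called lower. The E-box CACCTG had shares of 13.7%, 16.5% and 15.6%, and the TEAD motif CATTCC was in 10.3% of all promoters, 14 of 127 called higher and 6 of 77 called lower. The CArG box, the element of serum response factor, was present in 1.17%, 1.57% and 5.19%, the last being 4 of 77 promoters. A match is a description of letters and not evidence of binding. The 4 promoters below were picked after the matches of called genes were seen, 200 bases each, 5′ to 3′ on the gene's strand and ending just before the annotated start, with matches in capitals.
Actc1 (fell; CArG box starting 47 bases before the start; chr2:114052876-114053075, minus strand): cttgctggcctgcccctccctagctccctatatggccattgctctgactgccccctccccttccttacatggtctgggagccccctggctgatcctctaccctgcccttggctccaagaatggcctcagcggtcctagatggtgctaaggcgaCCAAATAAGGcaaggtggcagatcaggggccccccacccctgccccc
Dusp5 (fell; adjoining CArG boxes starting 82 and 72 bases before the start; chr19:53528945-53529144, plus strand): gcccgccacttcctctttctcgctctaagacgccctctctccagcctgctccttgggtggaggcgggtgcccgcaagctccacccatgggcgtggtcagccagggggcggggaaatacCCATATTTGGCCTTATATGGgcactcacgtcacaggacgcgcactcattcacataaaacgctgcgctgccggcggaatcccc
Des (fell; CAGCTG starting 36 bases before the start; chr1:75360092-75360291, plus strand): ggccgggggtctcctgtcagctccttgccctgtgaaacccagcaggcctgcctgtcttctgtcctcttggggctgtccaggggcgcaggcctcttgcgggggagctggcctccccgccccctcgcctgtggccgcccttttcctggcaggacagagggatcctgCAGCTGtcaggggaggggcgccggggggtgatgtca
Chrng (rose; CAGCTG starting 155 and 132 bases before the start; chr1:87205611-87205810, plus strand): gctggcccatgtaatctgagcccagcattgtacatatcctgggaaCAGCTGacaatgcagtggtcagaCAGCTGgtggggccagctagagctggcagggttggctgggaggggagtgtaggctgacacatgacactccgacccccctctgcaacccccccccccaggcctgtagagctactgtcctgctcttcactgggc
Des and Chrng carry the same E-box form and moved in opposite directions in polysomal RNA.

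Genes of the actin cytoskeleton and focal adhesion were lower as far as they were called: of 49 tested, 0 were called higher and 6 lower, and 16 lay wholly below the wild type (32.7%, against 10.5% of all genes). The count of lower calls was 0 without knockout library 2 or knockout library 3, 1 without wild-type library 3, 2 without wild-type library 1 and 3 without knockout library 1. The list median was -0.34 in polysomal RNA and -0.38 in total RNA, where 2 members were called higher and 11 lower. Tagln, an actin-binding protein of smooth muscle and fibroblasts, had 495, 845 and 487 in the wild type and 187, 116 and 141 in the knockout (-2.01 ± 0.30, adjusted p = 0.0158). Ctgf, a secreted target of serum response factor and YAP, had 339, 486 and 414 against 130, 143 and 121 (-1.63 ± 0.22, adjusted p = 0.0117). Both genes were separated between the groups in polysomal RNA, as all called genes were, and stood at 0.82 and -0.03 in total RNA. The LIM-domain proteins Fhl1 (-1.52) and Pdlim1 (-1.62) and the non-muscle myosin Myh10 (-1.34) fell as well. In total RNA these 3 genes were at -1.76, -2.32 and -1.36. The smooth muscle gamma actin Actg2 fell from 107, 165 and 154 to 9.43, 9.72 and 12.4 (-3.62 ± 0.25, adjusted p = 0.000735). Beta-actin, Actb, had 4634, 6690 and 6876 against 3871, 4048 and 4740 and overlapped (-0.51 ± 0.34, adjusted p = 0.533), and vimentin, Vim, was at 0.14 ± 0.34.

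Besides Myod1, the genes that fell furthest included scaffold, neuronal and matrix genes. Akap12, a scaffold that anchors protein kinase A, fell from 71.3, 51.6 and 71.1 to 1.21, 1.87 and 1.39 (-4.71 ± 0.25, adjusted p = 0.000416). Osbp2, an oxysterol-binding protein, fell from 66.3, 56.8 and 91.2 to 0.929, 1.78 and 1.57 (-4.89 ± 0.28, adjusted p = 0.000479). In both genes the highest knockout value was far under the lowest wild-type value. The neurofilament light chain Nefl went from 85.7, 61.0 and 66.6 to 1.14, 3.21 and 2.22 (-4.54 ± 0.31, adjusted p = 0.00071). The neurofilament medium chain Nefm (-3.75), the growth cone protein Gap43 (-3.74) and the neuronal tubulin Tubb3 (-1.202) fell too. Ccbe1 (-4.66), a matrix protein of lymphatic growth, Rgs16 (-4.08), which limits G protein signals, Ptgis (-3.88), the prostacyclin synthase, Sdpr (-3.48), a protein of caveolae, Wnt7b (-3.51), a secreted Wnt ligand, and Blnk (-3.07), an adaptor of B cell signalling, completed the set.

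Among the 15 genes that rose furthest, those other than Ogn had at most 5.89 normalised read counts in any wild-type polysomal library. Ncf4, a cytosolic subunit of the phagocyte NADPH oxidase, rose from 0.544, 2.08 and 0.318 to 56.9, 25.0 and 36.3 (4.38 ± 0.42, adjusted p = 0.00345). Cd24a, a surface glycoprotein, rose from 5.25, 3.24 and 3.66 to 59.9, 56.2 and 62.0 (3.60 ± 0.24, adjusted p = 0.00071). Every knockout value of both genes was above every wild-type value, as in all genes called higher. Maf, a basic leucine zipper factor, went from 5.01, 2.08 and 1.95 to 29.2, 33.1 and 49.5 (3.30 ± 0.35), and Wnt4, a Wnt ligand, from 4.66, 3.66 and 4.25 to 42.8, 28.3 and 36.9 (2.82 ± 0.25). Ogn, the small leucine-rich proteoglycan osteoglycin, rose from 94.0, 33.0 and 63.2 to 342, 432 and 728 (3.01 ± 0.43, adjusted p = 0.0128). The hormone precursor Cck (3.09), the serpins Serpinb6b (2.996) and Serpinb1a (2.96), the aldo-keto reductase Akr1c13 (2.89), the ER flavoprotein Foxred2 (2.90), Rab3il1 (2.84), a Rab exchange factor, Adamtsl3 (2.72), the mast cell protease Mcpt1 (2.69) and the membrane metalloprotease Mmp15 (2.62) rose by amounts of the same order.

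Matrix genes changed in both directions. Of 34 collagens and collagen processing enzymes, 3 were called higher and 5 lower, and 13 (38.2%) lay wholly below the wild type against 6 (17.6%) wholly above it. Collagen I, Col1a1, fell from 709, 603 and 501 to 275, 274 and 261 (-1.15 ± 0.23, adjusted p = 0.0421). The crosslinking enzyme Loxl2 (-3.03), Col5a3 (-2.44), Col6a2 (-1.95) and the procollagen peptidase Adamts2 (-1.52) fell, whereas the fibril-associated collagens Col14a1 (1.99) and Col12a1 (1.495) and the prolyl hydroxylase subunit P4ha3 (1.13) rose. The 3 higher calls were lost when any library other than wild-type library 2 was left out, and the lower calls numbered 1 without knockout library 3, 2 without wild-type library 1 or knockout library 2 and 3 without wild-type library 3 or knockout library 1.

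Of 34 basement membrane proteins and matrix glycoproteins, 3 rose and 3 fell. Tenascin C, Tnc, had 191, 138 and 212 in the wild type and 24.3, 33.8 and 23.05 in the knockout (-2.69 ± 0.26, adjusted p = 0.00345). Fibulin 2, Fbln2 (-1.60), and fibronectin, Fn1 (-1.11), fell, and besides Ogn the proteoglycan Fmod (1.87) and the basement membrane linker Nid2 (1.32) rose. Among 21 matrix proteases and their inhibitors, 1 was called higher, Mmp15, and 5 lower. Mmp2, gelatinase A, fell from 15.8, 16.04 and 16.6 to 1.43, 0.446 and 0.913 (-3.18 ± 0.26, adjusted p = 0.00197), and Timp3 (-1.95), an inhibitor, the urokinase receptor Plaur (-1.38) and the protease Htra1 (-1.01) also fell. Has1, which makes hyaluronan, fell from 19.4, 16.04 and 19.96 to 0.429, 0.446 and 0.261 (-3.82 ± 0.23). The lower calls of the protease list fell to 1 without wild-type library 1, wild-type library 3, knockout library 2 or knockout library 3, and to 2 without knockout library 1. For the basement membrane list, the 3 higher calls were 0 without knockout library 2 or knockout library 3, 1 without wild-type library 3, 2 without wild-type library 1 and 6 without wild-type library 2, and the 3 lower calls were 1 without knockout library 3, 2 without each of 4 other libraries and 6 without wild-type library 2.

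Transcripts of ribosome assembly factors, the machinery in which Ddx27 takes part, stood lower in knockout polysomal RNA as a group, but Ddx27 was the only member called. Among 61 tested factors of large-subunit assembly, 0 were called higher and 1 lower, 57 had a difference below 0, and 28 (45.9%, against 10.5% of all genes) lay wholly below the wild type with 1 wholly above. Their median was -0.44 against 0.01 over all genes, and it was -0.51 to -0.34 when 1 library was left out. Nop2, a methyltransferase of 28S rRNA, had 181, 264 and 201 in the wild type and 106, 122 and 82.8 in the knockout, without overlap (-1.05 ± 0.25, adjusted p = 0.0782). Mrto4, a placeholder on the nascent large subunit, had 69.8, 94.8 and 71.1 against 50.3, 34.2 and 36.4 (-0.95 ± 0.24, adjusted p = 0.103). The PeBoW genes did not pass the test: Wdr12 had 59.4, 51.9 and 69.7 against 38.01, 38.95 and 38.2 without overlap (-0.63, adjusted p = 0.192), and Bop1 (-0.64) and Pes1 (-0.28) overlapped.

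Small-subunit assembly factors and genes of RNA polymerase I and the core snoRNPs also had medians below 0. Of 58 small-subunit factors, 0 were called in either direction, 20 (34.5%) lay wholly below the wild type and 0 above, and the median was -0.45; examples were Noc4l (-0.95) and Tbl3 (-0.81). For 30 genes of RNA polymerase I and the core snoRNPs the counts were 0 called, 9 wholly below and 0 above, with a median of -0.49 and with Tcof1 (-0.91) and Nolc1 (-0.80) among them. In total RNA the medians of the 3 lists were 0.27, 0.19 and 0.14. In the single library of each genotype with under 1% of rRNA-like reads, number 3 in both, the medians of knockout minus wild type were -0.74, -0.74 and -0.72. When both libraries with high values of short genes were left out, a setting chosen after seeing the data, 26 large-subunit factors, 23 small-subunit factors and 11 Pol I and snoRNP genes were called lower. In that setting 900 of all 12189 genes were called lower and 1250 higher, far more than in the main fit.

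Translation factors followed at a smaller size. Of 54 tested, 0 were called, 13 (24.1%) lay wholly below and 3 (5.56%) wholly above the wild type, and the median was -0.30. Without both short-gene libraries 10 were called lower, where 900 of all 12189 genes were. Eif6, which keeps the large subunit from joining early, had 312, 596 and 345 against 264, 183 and 207 (-0.89 ± 0.30, adjusted p = 0.201), and Eef1a1, the elongation factor that delivers tRNA, had 1765, 1771 and 2161 against 3093, 2236 and 3184 (0.57 ± 0.30, adjusted p = 0.408). Cytosolic ribosomal protein mRNAs gave no stable direction. Their list medians were -0.27 for the large and -0.32 for the small subunit, but relative to the wild-type mean they were 0.47 and 0.50 in knockout library 1, -0.64 and -0.72 in knockout library 2, and -0.58 and -0.63 in knockout library 3, and wild-type library 2 was at 0.76 and 1.01. These short mRNAs thus stood high in the same libraries, wild-type 2 and knockout 1, as short genes in general, and the sign of both medians changed when single libraries were left out. Many of these genes have near-identical copies in the genome, and how reads were shared among them was not measured, so their levels are uncertain.

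**Figure D2:**
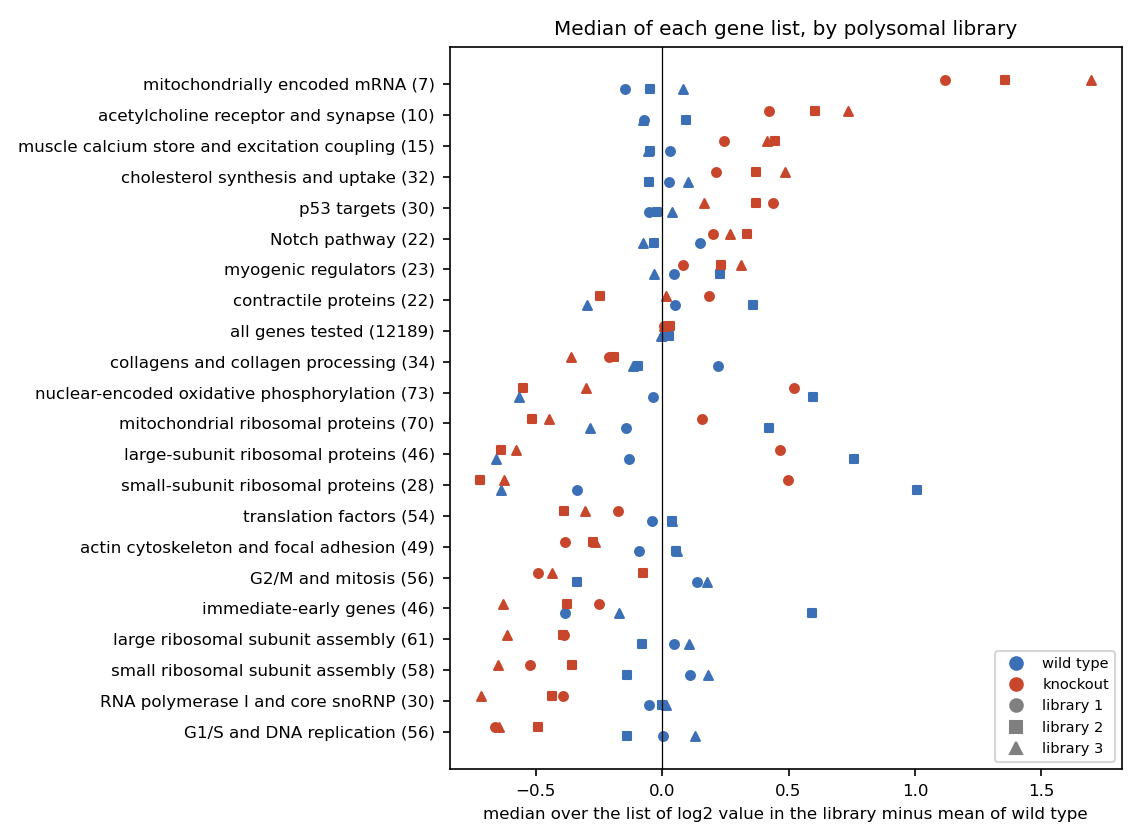
Median over the members of each gene list (number tested in parentheses) of the log2(value + 1) in a polysomal library minus the mean of the 3 wild-type libraries, for wild-type (blue) and knockout (red) libraries with marker shapes for library numbers. The 3 knockout points lie below the 3 wild-type points for the 3 lists of ribosome assembly and Pol I and for G1/S genes, above them for mitochondrially encoded and cholesterol genes, and mixed with them for ribosomal proteins.

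Cell cycle genes also stood lower in polysomal RNA without passing the test. Of 56 tested genes of G1/S and DNA replication, 0 were called, 29 (51.8%) lay wholly below the wild type and 0 above, and the median was -0.56. Mcm2, a subunit of the replicative helicase, had 136, 152 and 165 in the wild type and 69.2, 92.1 and 66.7 in the knockout (-0.99 ± 0.22, adjusted p = 0.0654), and Pold1, the catalytic subunit of DNA polymerase delta, had 48.9, 88.4 and 53.2 against 27.7, 32.4 and 24.7 (-1.10 ± 0.28, adjusted p = 0.099). Neither gene overlapped between the groups. For 56 genes of G2/M and mitosis the counts were 0 called, 13 (23.2%) wholly below and 0 above, with a median of -0.36, and the regulator Mybl2 had -1.21 and the kinase Aurka -0.74. In total RNA the medians were -0.27 and -0.58. Without both short-gene libraries 29 and 15 genes of these lists were called lower, where 900 of all 12189 genes were.

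In the other direction stood cholesterol and mitochondrial transcripts. Of 32 genes of cholesterol synthesis and uptake, 0 were called, and 10 (31.3%, against 13.1% of all genes) lay wholly above the wild type and 0 below. Their median was 0.40 in polysomal and -0.32 in total RNA. Nsdhl, a sterol dehydrogenase, had 30.5, 29.1 and 35.4 against 53.7, 52.1 and 73.5 (0.88 ± 0.23, adjusted p = 0.104), and Insig1, which holds the sterol sensor in the ER, had 34.98, 39.1 and 35.6 against 54.2, 57.0 and 61.9 (0.64 ± 0.20, adjusted p = 0.16). Without both short-gene libraries 5 of the 32 were called higher, where 1250 of all 12189 genes were. All 7 tested mitochondrially encoded mRNAs were above 0, with a median of 1.48, and 6 lay wholly above the wild type. Of these, mt-Nd2, a subunit of complex I, was called, rising from 312, 289 and 326 to 671, 835 and 1218 (1.51 ± 0.27, adjusted p = 0.033). The largest subunit gene of complex IV, mt-Co1, had 2063, 1971 and 2492 against 3913, 5539 and 9228 (1.43 ± 0.39, adjusted p = 0.12). These mRNAs are made and translated inside mitochondria, on ribosomes other than those of the cytosol. In total RNA their median was 0.59.

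**Figure D3:**
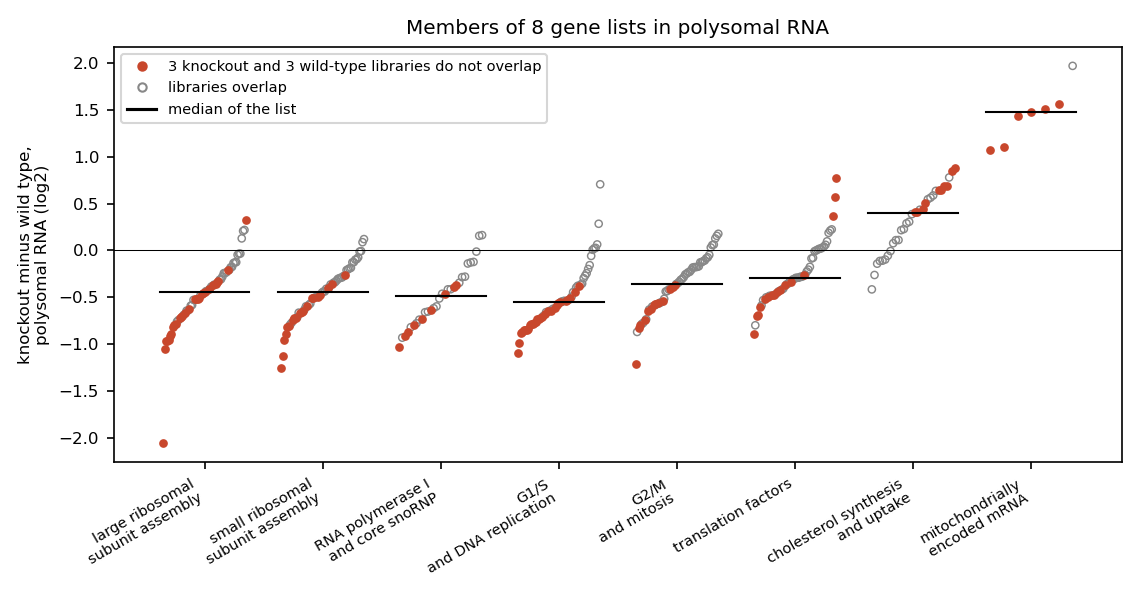
Difference of knockout minus wild type in polysomal RNA (log2) for every tested member of 8 lists, sorted within each list. Filled red points mark genes whose 3 knockout and 3 wild-type libraries do not overlap, open points the others, and bars the list medians, which run from -0.56 for G1/S genes to 1.48 for mitochondrially encoded mRNAs.

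Smaller groups held single calls. Of 46 immediate-early genes 0 were called higher and 3 lower, the phosphatases Dusp5 (-1.78) and Dusp6 (-1.11) beside Ctgf, and 0 were called without wild-type library 3, knockout library 2 or knockout library 3, 1 without knockout library 1 and 2 without wild-type library 1. Among 30 p53 targets, Trp53inp1, a stress protein of autophagy and cell death, rose (2.19) and Pmaip1, the BH3-only protein Noxa, fell (-2.14), and 10 (33.3%) lay wholly above the wild type. In the Notch list of 22, the ligand Dll1 rose from 0.738, 0 and 0.636 to 6.50, 4.72 and 4.87 (2.16 ± 0.29, adjusted p = 0.0113). Of 28 genes of glycolysis and hypoxia, 3 fell: the glucose transporter Slc2a1 (-1.37), the lactate transporter Slc16a3 (-1.89) and the oxygen sensor Egln3 (-1.11). Their lower calls numbered 5 without wild-type library 2, 1 without knockout library 1 and 0 without any other library. Dtna, a dystrobrevin, rose (1.45), and Dag1, dystroglycan, had 45.1, 25.0 and 67.2 against 35.4, 96.7 and 112 (0.77 ± 0.50, adjusted p = 0.519). Follistatin, Fst, which binds activin and myostatin, rose (1.65) in the list of 35 TGF-beta and BMP genes.

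The genotype difference was then set beside that in total RNA. In total RNA 591 of 12466 genes (4.74%) were called higher and 715 (5.74%) lower, with only 2 knockout libraries. Of the 202 genes called higher in polysomes, 84 were also called higher in total RNA and 183 had the same sign there. Of the 114 called lower, 94 were also called lower in total RNA and 110 had the same sign. Among all 12189 genes tested, 6641 had the same sign in both kinds of RNA. Across all 12189 genes, which are not independent replicates, Pearson's r between the 2 differences was 0.36 and Spearman's rho 0.18; the contrasts share no library. The median difference in total RNA was 0.83 for the genes called higher and -2.06 for those called lower.

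**Figure D4:**
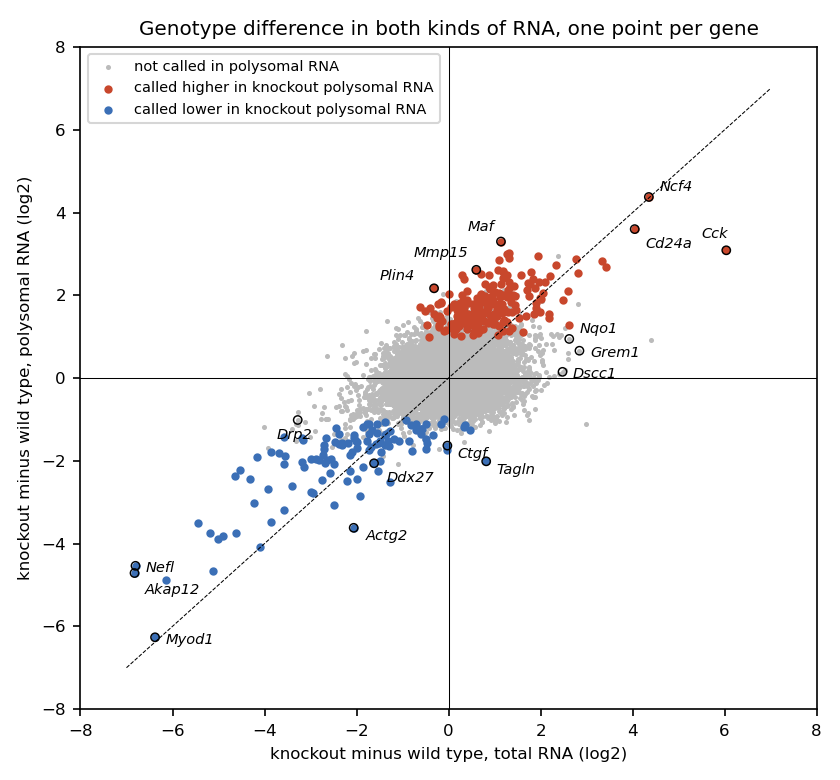
Difference of knockout minus wild type (log2) in total RNA (horizontal) and polysomal RNA (vertical) for each gene tested, with genes called in polysomal RNA in red (higher) and blue (lower), a dashed line of equality and circles on named genes. Myod1 lies near the line of equality at -6.38 and -6.27, while Tagln and Ctgf are at -2.01 and -1.63 in polysomal RNA and 0.82 and -0.03 in total RNA. The polysomal fall of Myod1 is at the limit that log2(value + 1) sets for its wild-type level, so its position does not show equal falls.

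The difference between the polysomal and the total contrast was itself tested with a model of 4 group means. It was above 0 for 29 genes (0.233%) and below 0 for 6 (0.0481%), and 2610 genes had an unadjusted p under 0.05. All of these calls were lost without wild-type library 3 or knockout library 3, while 258 and 139 were made without wild-type library 2 and 114 and 45 without knockout library 1; without wild-type library 1 the counts were 17 and 1, and without knockout library 2 they were 12 and 1. Tagln had 177, 191 and 135 in wild-type and 218 and 394 in knockout total RNA, against the lower knockout values in polysomes given above, and the 2 differences were apart by -2.83 ± 0.44 (adjusted p = 0.0356). Ctgf had 132, 140 and 116 against 114 and 140 in total RNA, where the groups overlapped, and was apart by -1.61 ± 0.27 (adjusted p = 0.0395). Plin4, a coat protein of lipid droplets, had 1.63, 0.831 and 1.75 in wild-type and 10.9, 8.38 and 9.83 in knockout polysomes, and 15.1, 15.9 and 14.1 against 13.2 and 10.7 in total RNA. Its rise in polysomes exceeded the total RNA difference by 2.48 ± 0.32 (adjusted p = 0.0258).

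In other genes total RNA moved more than polysomal RNA. Nqo1, a quinone reductase of the Nrf2 response, had 53.9, 57.1 and 44.8 against 288 and 363 in total RNA, and 50.3, 39.3 and 47.6 against 85.2, 78.5 and 103 in polysomes (apart by -1.68 ± 0.28, adjusted p = 0.0383). Dscc1, a loader of the replication clamp, had 36.1, 39.4 and 22.2 against 136 and 240.02 in total RNA, and 96.1, 75.6 and 78.7 against 92.5, 91.5 and 92.5 in polysomes, where the groups overlapped (apart by -2.33 ± 0.38, adjusted p = 0.038). Nefl fell in both, with a difference of -6.80 in total RNA, and was apart by 2.27 ± 0.39. Its knockout values were low in both, 1.60 and 1.67 in total RNA and 1.14, 3.21 and 2.22 in polysomes, which limits this comparison. For the assembly lists above, no member other than Ddx27 was called in polysomes; the difference for Mrto4 was -1.68 ± 0.38 (adjusted p = 0.0756) and for Wdr12 -1.49 ± 0.29 (adjusted p = 0.0678).

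Genome position gave one chromosome with lower values. Over 560 tested genes on chromosome 6 the median difference was -0.23 in polysomal and -0.20 in total RNA. Of these genes, 124 (22.1%) lay wholly below the wild type and 42 (7.5%) wholly above, against 10.5% and 13.1% of all genes. Calls numbered 3 higher and 10 lower, where 1.66% and 0.935% of all genes were called. Chromosome 1 had 14 lower calls among 695 genes and chromosome 10 had 10 among 564, so such calls were not particular to chromosome 6. The next lowest median in polysomal RNA was -0.11, on chromosome 5, and the highest among chromosomes 1 to 19 and X was 0.14, on chromosome 13. In total RNA the next lowest, on chromosome 12, was close to that of chromosome 6, at -0.18. The chromosomes were compared after their values were seen and no test was made.

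**Figure D5:**
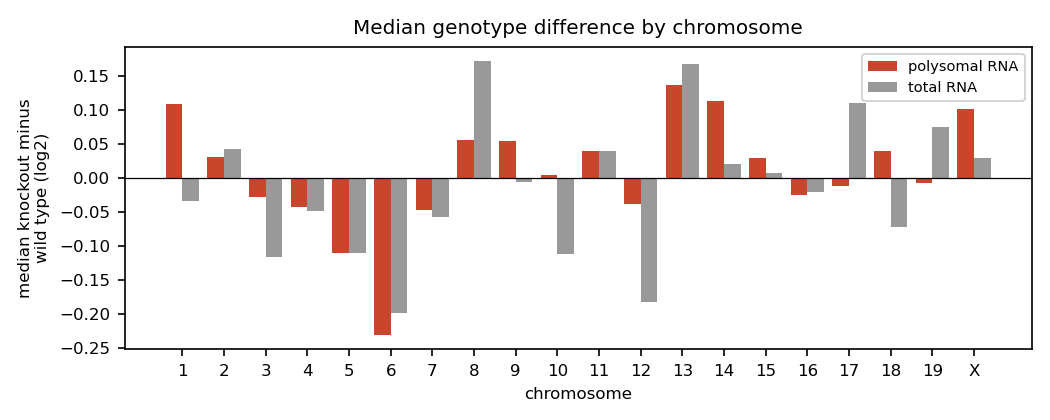
Median difference of knockout minus wild type (log2) over the tested genes of each chromosome, in polysomal RNA (red bars) and total RNA (grey bars). Chromosome 6 has the lowest median in both, at -0.23 and -0.20, but in total RNA chromosome 12 is close, at -0.18.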

How the data were processed

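RNA of total cells and of purified polysomes was extracted with Trizol and made into Illumina libraries, per the labels' protocols. The authors deposited 1 table per genotype whose signal columns hold normalised read counts, scaled within each table; 100% of values were whole reads times 1 factor per library (tolerance 0.001 reads). The authors also deposited gene lengths, a log2 fold change between both kinds of RNA and its FDR; of these only the lengths were used. The submitters' processing notes name mm10, STAR, edgeR and HTSeq; versions, roles, strand and annotation are not given in the sources used here. Knockout columns match their samples by group only, so their numbers are column numbers.

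Scale factors for all 11 libraries were medians of ratios over 10919 genes above 1 in every library. Genes reaching 1 in 3 or more of the 6 polysomal libraries were tested with limma 3.58.1 (R 4.3.3, mean-variance trend) on log2(value + 1), which understates changes of low genes, calling genes at a Benjamini-Hochberg adjusted p under 0.05; the test had been planned for CPM. The test was also run on simulated counts with the same dispersion for every gene. That simulation had none of the rRNA and length differences between libraries seen here, so it cannot show how the test handles them. Total RNA and the difference came from 1 fit of 4 group means over 12466 genes. Alternatives used edgeR 4.0.16 and DESeq2 1.42.0 on the recovered counts, other scalings, filters and pseudocounts, and left out libraries with the tested genes kept.

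Members and 44 gene lists were chosen with earlier results of these data known; Gm26924 was added to the rRNA-like list after its values were seen. Named were Ddx27, the 15 largest rises and falls without overlap and with a mean of at least 5 in the higher group, up to 5 called members per list and direction, a set of myogenic, PeBoW and housekeeping genes, and the 5 lowest adjusted p in each direction of the difference. Of the set, Pax7 and Mef2c were listed for the wild type only, Igf2 was under the filter, and Igf1 and Dmd were not analysed here. A gene that the rule selects is not reported here. Uncalled list examples and carbonic anhydrases were picked after values were seen. Coordinates come from RefSeq GRCm38.p6, matched for 11862 genes.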

Additional observations from a re-analysis of the deposited data

Results flagged for a closer look

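The genotype difference in polysomal RNA differed from that in total RNA for 35 genes, 29 above and 6 below 0, by the test of the difference itself at an adjusted p under 0.05 (limma, 4 group means, 3 wild-type and 2 or 3 knockout libraries per kind of RNA). The 13 of these that the naming rules selected are given here, so their split by direction is not that of all 35. The polysomal difference was the higher one, on the log2 scale, for Ppp2r2b (2.67), Plin4 (2.48), Adam8 (2.44), Nefl (2.27), Drp2 (2.27), Lrrc17 (2.21) and Mmp15 (2.01). For Sprr2h (-3.48), Tagln (-2.83), Dscc1 (-2.33), Grem1 (-2.18), Nqo1 (-1.68) and Ctgf (-1.61) it was the lower one. Ppp2r2b, Drp2 and Adam8 had fallen in total RNA, to -3.03, -3.28 and -3.27, and stood at -0.37, -1.01 and -0.82 in polysomal RNA without passing the test there. Wild-type polysomal values were only 2.33, 1.83 and 0.954 for Ppp2r2b and 3.58, 2.91 and 4.06 for Drp2. On the log2(value + 1) scale levels that low cannot fall as far as these genes fell in total RNA. For both, a difference above 0 was thus fixed by the low level and does not show a smaller effect in polysomes. Grem1, a secreted BMP antagonist, had 95.0, 97.9 and 66.2 against 734 and 520 in total RNA, and 150, 134 and 165 against 184, 316 and 225 in polysomal RNA. None of the calls of this test was made without wild-type library 3 or without knockout library 3. Their part in the result was not tested further.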

How the results depend on the processing

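The counts of genes higher and lower in knockout polysomal RNA were 202 and 114. They were 560 and 396 with DESeq2, 638 and 415 with 4 group means over all libraries, 295 and 207 with the length trend removed, and 1250 and 900 without wild-type library 2 and knockout library 1 (chosen after seeing the data), where all 316 calls were kept. Leaving out 1 library gave 5 to 395 higher and 19 to 202 lower, and -2.25 to -1.86 for Ddx27. The counts differing from total RNA, 29 and 6, were 61 and 10 with a pseudocount of 4 and 0 to 258 and 0 to 139 with 1 library left out. The cause was not tested. Library numbers did not pair the samples: the correlation of deviations was -0.43, -0.64 and 0.60 for equal numbers, and knockout library 1 correlated best with wild-type library 2 (0.77). With the replicate block 1 gene was higher and 10 lower, and Ddx27 was at -2.06 (adjusted p = 0.116). No called gene named by the rule changed sign; Vim and Car11, which were not called, did. Depth limits values under the 3-read floors.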

Other observations

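Carbonic anhydrases, enzymes that interconvert carbon dioxide and bicarbonate, changed in opposite directions; the family was picked after its values were seen. Car3, the muscle form, fell from 312, 142 and 178 in wild-type polysomes to 38.8, 28.3 and 41.0 in the knockout (-2.45 ± 0.32, adjusted p = 0.0113). Car2, the widespread cytosolic form, rose from 10.8, 8.48 and 6.12 to 41.0, 31.4 and 52.6 (2.17 ± 0.29, adjusted p = 0.0113). The mitochondrial Car5b (2.27), Car8 (1.44), which lacks catalytic activity, and Car13 (1.53) rose as well, each without overlap, and Car11 did not pass the test (0.15 ± 0.38). In total RNA the differences were -4.31 for Car3, 1.87 for Car2, 1.76 for Car5b, 1.54 for Car8 and 0.73 for Car13.

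Of 35 tested imprinted and patterning genes, 2 were called higher and 1 lower, 7 lay wholly above the wild type and 5 wholly below, and the median was 0.13; the sign of the median was not the same under every alternative. Peg10, a retrotransposon-derived gene, fell from 25.1, 8.31 and 23.02 to 1.0003, 2.85 and 2.30 (-2.61 ± 0.45), and Peg3, a zinc finger gene, rose from 46.9, 13.0 and 35.4 to 106, 254 and 159 (2.49 ± 0.50, adjusted p = 0.0445); each kept its call in 1 of 6 fits that left out 1 library. Tbx2, a T-box factor, was the other gene that rose (1.90). Both were without overlap between the groups, and in total RNA Peg10 was at -3.40 and Peg3 at 0.28. Malat1, a nuclear long non-coding RNA, had 263, 137 and 93.6 in wild-type and 493, 955 and 78.7 in knockout polysomal libraries, overlapping and lowest in library 3 of both genotypes. Replication-dependent histones had medians of 0.95, 1.44 and -0.48 relative to the wild-type mean in knockout libraries 1, 2 and 3, and library 3 was again the lowest.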
